A study of Mus musculus with 14 samples.

Results

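Macrophage and myeloid genes were followed through the 4 RNA libraries of a mouse reprogramming study. The set held 34 genes of 22026 in the expression tables: receptor adaptors and Fc receptors, the complement C1q chains, the CSF1 receptor and its transcription factor, lysosomal and microbe-killing proteins, surface receptors, Ms4a proteins, and a cytoskeletal protein with a chemokine. Members were taken by name from a list drawn up with earlier results of these data known, and no threshold on the values was applied; 33 genes were found under the listed symbol and 1, Spi1, under an older symbol. The cells were fibroblasts from mouse tails, and their genotype label was either AID-null or wildtype. RNA came from untreated fibroblasts of each genotype and from fibroblasts of each genotype taken after 3 weeks of reprogramming with introduced Oct4, Sox2, KLf4 and cMyc, the factors that turn fibroblasts toward pluripotent stem cells, so there were 4 groups with 1 library each. With no replicates there is no spread to test against: no p-values are given, and every difference is one between 2 libraries. The strain, age and number of animals, and the way the cells were isolated and passaged, are unknown from the labels. The 10 bisulfite libraries of the study were not used here.

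Macrophages are tissue phagocytes of the myeloid lineage. Their survival depends on CSF1 or IL-34 acting through the receptor CSF1R, and their identity on the transcription factor PU.1, the product of Spi1, which binds purine-rich DNA with the core GAGGAA. They take up antibody-coated particles through Fc receptors, of which the activating ones signal through the adaptor FCER1G. FCER1G and TYROBP, the adaptor of TREM2, carry an activation motif (ITAM). Macrophages are also a main source of C1q, the recognition molecule of classical complement. Connective tissue holds resident macrophages, and primary cultures from it can carry them along. RNA from a whole culture cannot tell fewer macrophages from less RNA of these genes per cell.

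Because PU.1 is a shared regulator of many of these genes, the DNA at their start sites was read for its core. RefSeq promoter windows (GRCm38.p6, 250 bases before to 50 after the start) were at hand for 26 of the 34 genes. The members without a window at hand were Tyrobp, C1qa, Csf1r, Spi1, Emr1, Cd14, Clec4n and Ms4a6d, and these were not read. GAGGAA on either strand (TTCCTC on the other) lay in the windows of 18 of 26 genes, 69.2%, against 31.3% of 27025 genes in the same table. The longer form GAGGAAGT, which contains the first, was found in 4 of 26 genes, 15.4%, against 3.69% of all genes, and TATAAA on the gene's strand in 2 of 26, 7.69% against 9.77%. The genes with the longer form were C1qc, Ctss, Cd53 and Pf4. All 4 are printed, and their RNA values, given below, went different ways. Itgam, the gene of the macrophage integrin CD11b, is printed with 2 copies of the core in the stretch shown. The Ctss and Cd53 lines also hold a copy of the core outside the longer form, left in lower case. Each line runs from 250 bases before to 20 bases after the start, 5′ to 3′ on the gene's strand. Capitals mark GAGGAAGT or its reverse complement ACTTCCTC, and in Itgam GAGGAA or TTCCTC.
C1qc (chr4:136892895-136893164, minus strand): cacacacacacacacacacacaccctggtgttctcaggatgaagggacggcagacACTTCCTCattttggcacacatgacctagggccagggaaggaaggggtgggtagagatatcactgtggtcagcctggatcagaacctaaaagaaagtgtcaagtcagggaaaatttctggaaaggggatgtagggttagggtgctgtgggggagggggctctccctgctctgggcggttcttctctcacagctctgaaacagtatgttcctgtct
Ctss (chr3:95526536-95526805, plus strand): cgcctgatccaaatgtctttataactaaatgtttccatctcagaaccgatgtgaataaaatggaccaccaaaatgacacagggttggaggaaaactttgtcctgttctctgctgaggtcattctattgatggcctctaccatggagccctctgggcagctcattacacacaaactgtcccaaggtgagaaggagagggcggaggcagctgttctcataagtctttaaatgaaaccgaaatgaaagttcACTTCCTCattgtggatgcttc
Cd53 (chr3:106790130-106790399, minus strand): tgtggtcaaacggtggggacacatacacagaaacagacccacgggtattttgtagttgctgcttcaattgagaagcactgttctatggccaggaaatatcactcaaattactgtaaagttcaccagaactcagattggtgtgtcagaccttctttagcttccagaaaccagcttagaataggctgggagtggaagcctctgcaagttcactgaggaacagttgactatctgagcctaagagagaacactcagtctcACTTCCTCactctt
Pf4 (chr5:90772185-90772454, plus strand): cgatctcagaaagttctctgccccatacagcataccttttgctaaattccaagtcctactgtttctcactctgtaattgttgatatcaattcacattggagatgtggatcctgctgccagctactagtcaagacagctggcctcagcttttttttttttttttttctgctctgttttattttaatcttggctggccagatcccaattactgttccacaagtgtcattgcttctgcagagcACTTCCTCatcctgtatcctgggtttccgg
Itgam (chr7:128062390-128062659, plus strand): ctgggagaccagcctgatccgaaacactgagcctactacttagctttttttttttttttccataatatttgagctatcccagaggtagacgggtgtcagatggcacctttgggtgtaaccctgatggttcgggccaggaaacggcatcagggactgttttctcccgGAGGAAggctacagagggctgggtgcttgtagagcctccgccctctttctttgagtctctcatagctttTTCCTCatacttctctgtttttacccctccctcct
The capitals begin 195 bases before the start in C1qc, 2 bases before it in Ctss, 10 bases before it in Pf4 and at base 7 after it in Cd53. In Itgam they begin 84 and 15 bases before it. A match is a description of the letters and not evidence of a bound site. The RNA values were made on another build, mm9, and no coordinates were carried between the 2 builds.

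Levels are given as FPKM, which counts fragments per transcript length, in kilobases, and per library size. Below, wildtype and AID-null name the labels of the libraries only. The labels divided X- and Y-linked RNA: in fibroblasts, Xist had 456 FPKM under the wildtype and 0.99 FPKM under the other label, whereas the Y-linked Eif2s3y was listed at 0 in both wildtype libraries and had 184 and 274 FPKM in those labelled AID-null. A difference between the labels therefore cannot be told apart from one between cells with and without a Y chromosome. Both fibroblast libraries had all 12 fibroblast markers at 20 FPKM or more. Read depth is unknown, because the low values have no step in common from library to library. An exact 0 can be a failed estimate, since 2 of 77 ribosomal protein genes were also listed at 0 in each fibroblast library, and no fold is given against it. In the 3-week libraries, 0 of the 77 were listed at 0.

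The macrophage genes were present in both fibroblast libraries and most abundant under the AID-null label. Their FPKM summed to 2064 in the fibroblast library labelled wildtype, 4061 in the AID-null fibroblasts, 753.8 after 3 weeks under the wildtype label and 1957 after 3 weeks under the AID-null label. Lyz2 alone made up much of each sum but that of the wildtype 3-week library, and without it the sums were 823.9, 2595, 715.4 and 1054 FPKM. The number of the 34 genes at 20 FPKM or more was 14, 25, 6 and 13 in the same order. The number listed at 0 was 3, 1, 16 and 3. The wildtype 3-week library thus stood apart in having nearly as many macrophage genes at 0 as above it. Cd163, the hemoglobin scavenger receptor, was listed at 0 in all 4 libraries.

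**Figure D1:**
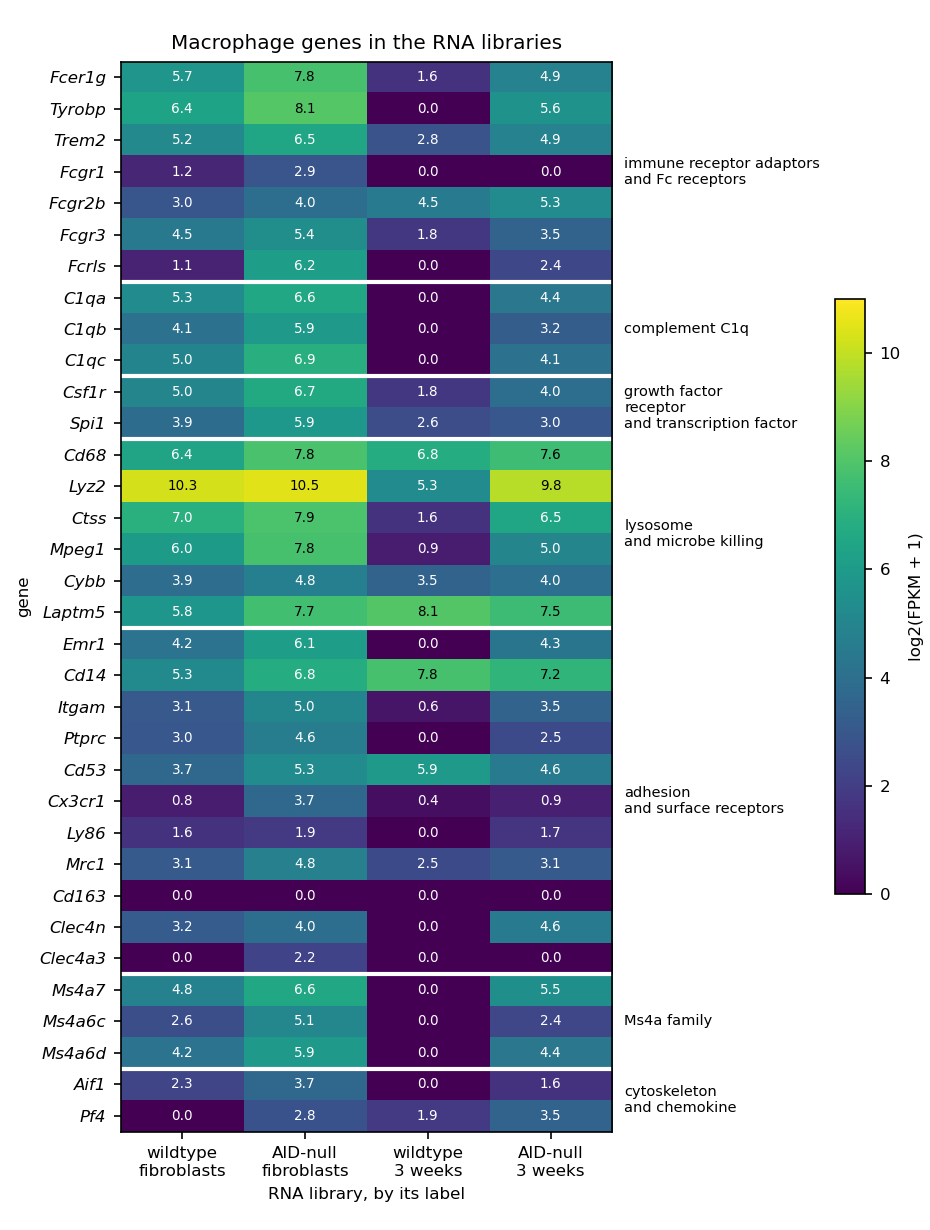
Levels of the 34 macrophage genes (rows, grouped by role) in the 4 RNA libraries (columns, by label), as log2(FPKM + 1), with the value in each cell. Most rows are brightest in the AID-null fibroblasts and dark in the wildtype 3-week culture, where 16 genes are listed at 0. Laptm5, Cd14 and Cd53 are brightest in that library instead, and Cd68, Lyz2 and Fcgr2b have values of 6.8, 5.3 and 4.5 there.

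Among receptor adaptors and Fc receptors, the adaptors were the most abundant in both fibroblast libraries. At 3 weeks the most abundant was Fcgr2b under the wildtype label and Tyrobp under the AID-null label. Tyrobp (DAP12), the adaptor of TREM2, had 81.7 FPKM in wildtype-labelled fibroblasts, against 270.5 FPKM in the AID-null ones, and after 3 weeks 0 against 48.2 FPKM. Fcer1g, the common signalling chain of activating Fc receptors, was at 51.9, 225, 2.08 and 28.5 FPKM in that order, which is kept below (wildtype and AID-null fibroblasts, then wildtype and AID-null cultures at 3 weeks). Trem2, a lipid-binding receptor, was at 35.6, 87.9, 5.98 and 28.7 FPKM. All 3 were highest in AID-null fibroblasts and lowest in the wildtype 3-week culture. Fcgr3, the low-affinity activating IgG receptor, followed the same order at 21.0, 41.7, 2.41 and 10.4 FPKM. Fcrls, an Fc receptor-like scavenger receptor, was at 1.11, 69.9, 0 and 4.20 FPKM, the largest log2 difference between the fibroblast libraries among the 34 genes. Fcgr2b, the inhibitory IgG receptor, was at 6.72, 14.8, 21.4 and 38.3 FPKM. It differed from the other genes of this group in being higher in both 3-week cultures than in either fibroblast library. Fcgr2b and Fcgr3 are close relatives in their extracellular parts, and how the authors' counting divided reads between such relatives is not recorded in the labels. The same holds for Lyz2, which has a near copy in Lyz1, and for the Ms4a genes.

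The C1q chains were detected together or not at all, with C1qb the lowest of the 3 wherever they were found. C1qa was at 38.7, 94.8, 0 and 19.9 FPKM, C1qb at 16.4, 59.7, 0 and 8.44 FPKM, and C1qc at 30.5, 119.9, 0 and 16.4 FPKM. All 3 were listed at 0 in the wildtype 3-week library and detected in the others. Per length, the level of C1qb was 0.424 of that of C1qa in the wildtype fibroblasts, 0.63 in the AID-null ones and 0.425 in the AID-null culture at 3 weeks. C1qc was 0.787, 1.26 and 0.827 of C1qa. The protein is assembled from equal numbers of the 3 chains. Of the C1q windows read, C1qb holds the short PU.1 core and C1qc, printed above, the longer form.

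The CSF1 receptor and PU.1 were both detected in every library. Csf1r was at 30.9, 103, 2.42 and 14.5 FPKM. Spi1 was at 13.7, 57.6, 5.09 and 6.97 FPKM. Both were highest in AID-null fibroblasts, but at 3 weeks the libraries differed by 2.18 in log2(FPKM + 1) for Csf1r and by 0.39 for Spi1. The ligand Csf1, which fibroblasts make, ran the other way between the labels. It was at 2397 and 1399 FPKM in the fibroblast libraries and 688 and 417 FPKM at 3 weeks. These differences in log2(FPKM + 1), -0.78 and -0.72, did not reach 1. The other ligand, Il34, was at 14.5, 19.7, 17.5 and 25.6 FPKM, higher under the AID-null label by 0.42 and 0.52.

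Lysosomal and microbe-killing genes differed in the share of the wildtype fibroblast level left at 3 weeks. Lyz2, lysozyme M, was the most abundant of the 34 genes at 1239.9, 1466, 38.4 and 903 FPKM. Ctss, the protease cathepsin S, was at 124, 233, 2.07 and 90.4 FPKM. Mpeg1, which encodes the pore-forming perforin-2, was at 63.2, 218, 0.83 and 31.5 FPKM. All 3 were lowest in the wildtype 3-week library, at 3.1%, 1.67% and 1.31% of their wildtype fibroblast levels. Under the AID-null label their 3-week levels were 61.6%, 38.7% and 14.4% of the fibroblast levels. Cd68, a glycoprotein of late endosomes, was at 85.3, 229, 112 and 193 FPKM. Cybb, the catalytic chain of the phagocyte NADPH oxidase, was at 14.3, 26.1, 10.3 and 15.1 FPKM. Laptm5, a lysosomal membrane protein of blood cells, was at 54.3, 200.3, 265 and 184 FPKM. Cd68, Cybb and Laptm5 were at 132%, 72.4% and 488% of their fibroblast levels after 3 weeks under the wildtype label. Cybb was also lowest in the wildtype 3-week library, whereas Laptm5 was highest there.

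Surface receptors differed in the same way. Emr1, which encodes the macrophage marker F4/80, was at 17.0, 68.3, 0 and 18.2 FPKM. Itgam (CD11b) was at 7.34, 31.6, 0.54 and 10.4 FPKM. Ptprc, the leukocyte phosphatase CD45, was at 6.86, 23.2, 0 and 4.48 FPKM. All 3 are among the defining markers of macrophages or leukocytes, and all 3 were under 1 FPKM in the wildtype 3-week library. Csf1r, Spi1 and Mrc1, also counted as defining, were at 2.42, 5.09 and 4.45 FPKM in that library. Mrc1, the mannose receptor, was at 7.74, 27.0, 4.45 and 7.74 FPKM, and Clec4n, which encodes the fungal receptor dectin-2, was at 8.24, 14.6, 0 and 22.7 FPKM. Cd14, the lipopolysaccharide coreceptor, was at 37.6, 110.3, 219 and 147 FPKM. Cd53, a leukocyte tetraspanin, was at 12.0, 38.4, 58.3 and 22.9 FPKM. Cd14 and Cd53 were highest in the wildtype 3-week culture, where Emr1 and Ptprc were listed at 0.

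The Ms4a genes, which encode membrane proteins with 4 transmembrane segments, were detected in 3 of the 4 libraries. Ms4a7 was at 27.2, 94.7, 0 and 43.8 FPKM, Ms4a6c at 5.22, 33.6, 0 and 4.12 FPKM, and Ms4a6d at 17.4, 59.1, 0 and 19.5 FPKM. The remaining 7 genes stayed under 20 FPKM in every library. They were Fcgr1 (high-affinity IgG receptor), Cx3cr1 (fractalkine receptor), Ly86 (a partner of the Toll-like receptor relative RP105), Cd163, Clec4a3 (a C-type lectin), Aif1 (IBA1, an actin-binding protein) and Pf4 (the chemokine CXCL4). Their highest value was 12.2 FPKM, for Cx3cr1 in AID-null fibroblasts, and 6 of the 7 were higher in AID-null than in wildtype fibroblasts.

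In untreated fibroblasts every macrophage gene compared was higher under the AID-null label. Of the 34 genes, 33 had at least 1 FPKM in either library and could be compared, and 27 of these were higher by at least 1 in log2(FPKM + 1), a 2-fold difference on that scale. None was lower by that much. Over all 13788 genes compared, 4.26% were higher by that much and 1.34% lower. The median difference was 1.71 over the macrophage genes and -0.03 over all genes. The range was 0.24 to 5.07, and 3 of the 33 genes had passed the 1 FPKM filter in the AID-null library only. Fcgr2b was the nearest above the limit at 1.04, and was at 0.98 when the libraries were rescaled to an equal sum.

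The size of that difference was similar for most of the genes. On the linear scale, 26 of the 34 genes had at least 5 FPKM in both fibroblast libraries, and the AID-null value of all 26 was above the wildtype value, against 40.7% of the 11564 genes that met the same minimum. The median ratio was 3.36, with the middle 50% of genes between 2.46 and 3.67. Ratios between 2 and 5 were found for 20 of the 26 genes and for 1.49% of all genes. Lyz2 had the lowest ratio, 1.18, and Ms4a6c the highest, 6.44. Fcrls had a larger ratio but did not meet the minimum in the wildtype library. The 12 fibroblast markers had a median ratio of 1.09 between the same libraries.

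**Figure D2:**
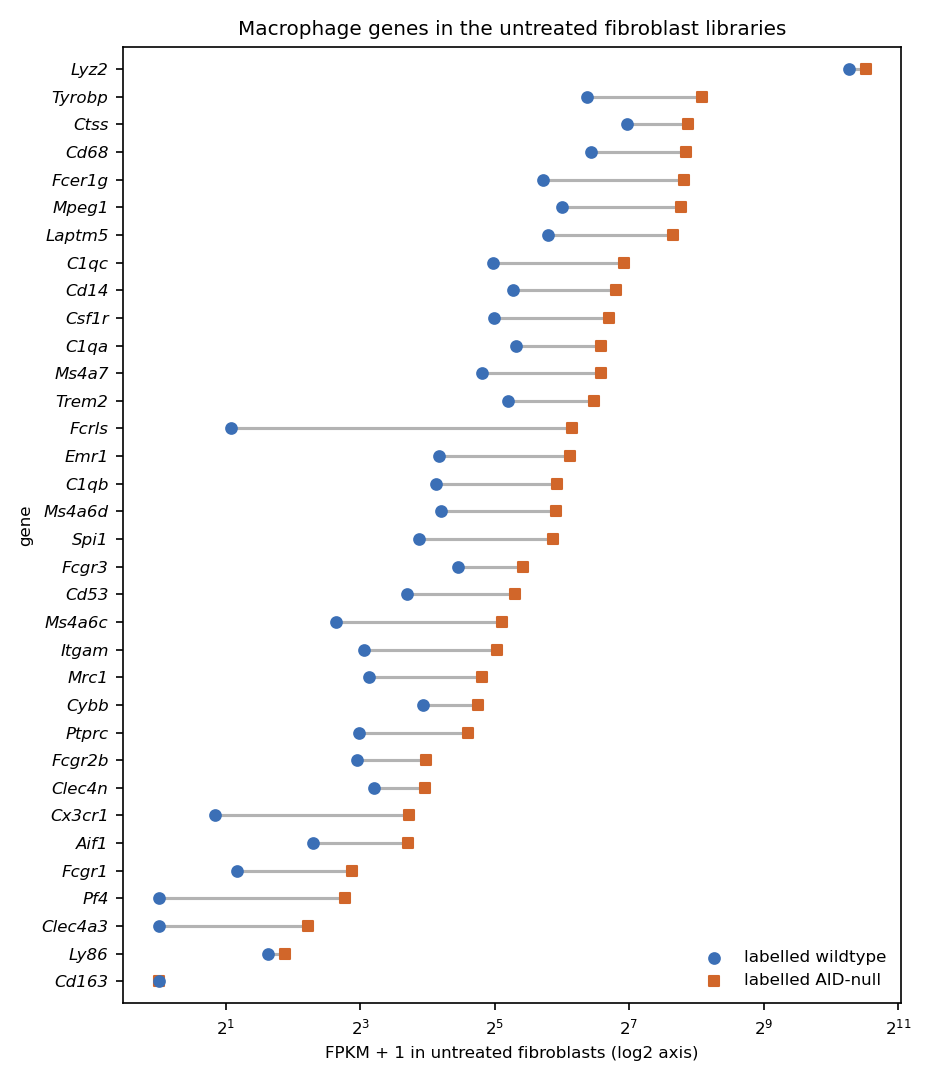
Level of each of the 34 macrophage genes in the 2 untreated fibroblast libraries, as FPKM + 1 on a log2 axis, with 1 library per label and so no error bars. The AID-null square lies to the right of the wildtype circle for all 33 genes that were detected, closest for Lyz2 and Ly86 and farthest apart for Fcrls. Cd163 is at 0 FPKM in both.

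During reprogramming under the wildtype label most macrophage genes fell and a few rose. Of 31 genes compared, 23 were lower by at least 1 after 3 weeks and 5 were higher, against 17.7% lower and 27.0% higher over all 15196 genes compared. The median was -2.64 over the macrophage genes and 0.16 over all genes, and over the macrophage genes it was -4.45 with 0.1 FPKM added in place of 1 and -1.25 with 5 FPKM added. The largest falls in log2(FPKM + 1) were those of Tyrobp (-6.37), Ctss (-5.35), C1qa (-5.31) and Mpeg1 (-5.13). The 5 higher genes were Cd14 (2.51), Laptm5 (2.27), Cd53 (2.19), Pf4 (1.87) and Fcgr2b (1.54). Of the 31 genes, 15 were listed at 0 in one of the 2 libraries, and 2 more, Mpeg1 and Itgam, were under 1 FPKM at 3 weeks, so that 17 passed the filter through 1 library only. The size of their change depends on the added 1 FPKM.

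Under the AID-null label most macrophage genes fell as well. Of 33 genes compared, 23 were lower by at least 1 after 3 weeks and 1, Fcgr2b, was higher, against 17.6% lower and 21.3% higher over all 15076 genes. The median was -1.85, against -0.05 over all genes. Tyrobp changed by -2.46, C1qa by -2.20, Csf1r by -2.75 and Mpeg1 by -2.76. Fcrls had the largest fall, -3.77. Lyz2 differed by -0.70 and Clec4n by 0.60, neither of which reached 1.

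Of the 31 genes compared under both labels, 20 were lower by at least 1 in each series, against 11.2% of the 14648 genes compared in both: Fcer1g, Tyrobp, Trem2, Fcgr1, Fcgr3 and Fcrls among receptors, the 3 C1q chains, Csf1r and Spi1, Ctss and Mpeg1, Emr1, Itgam and Ptprc, the 3 Ms4a genes and Aif1. Some of these were near the limit of 1: Ms4a7 changed by -1.09 under the AID-null label, and by -0.97 with median-of-ratios scaling. Under the wildtype label, Spi1 changed by -1.27 and by -0.89 with 5 FPKM added, and Fcrls by -1.08 and by -0.63 when the libraries were rescaled to an equal sum. Lyz2, Ly86 and Clec4n were lower under the wildtype label only by this rule, and Mrc1 under the AID-null label only. Cx3cr1 and Clec4a3 were lower under the AID-null label, but were under 1 FPKM in both wildtype libraries and were not compared there. Fcgr2b was higher in both. Of the genes whose windows hold the longer PU.1 form, C1qc and Ctss were among the 20 that were lower in both, while Cd53 and Pf4 were higher under the wildtype label.

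**Figure D3:**
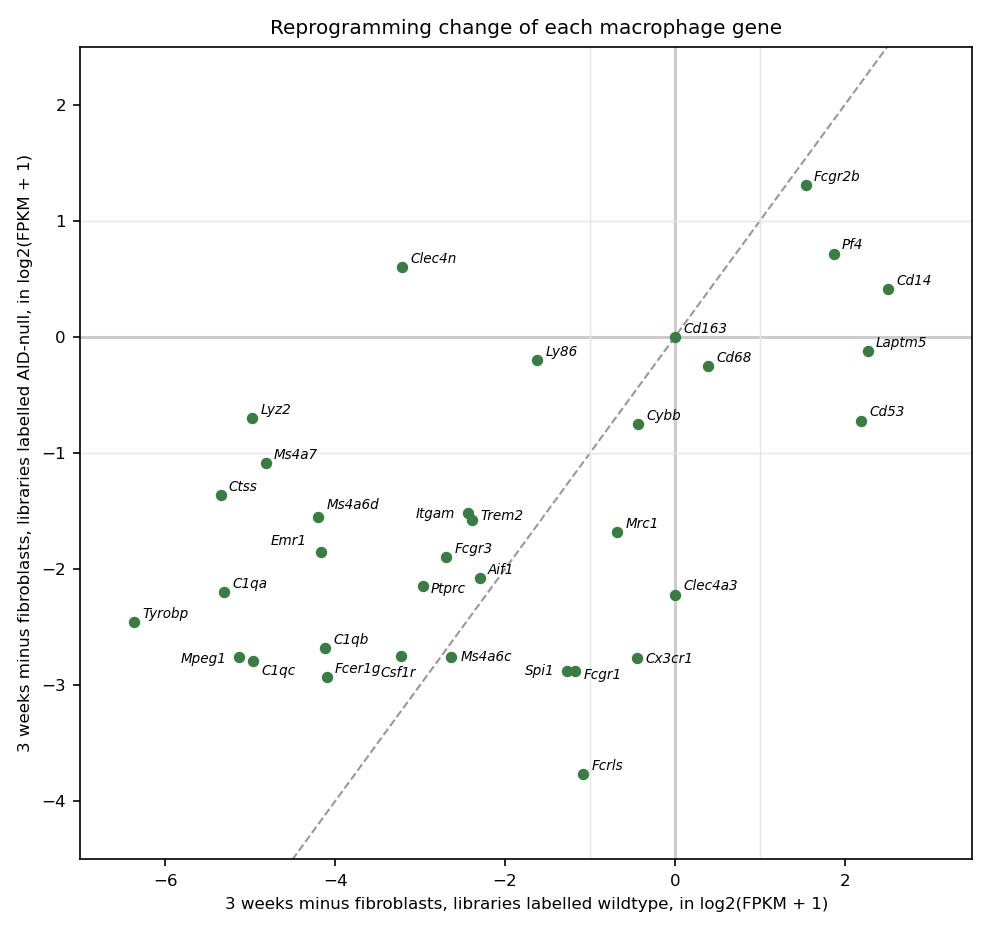
Change from fibroblasts to 3 weeks for each of the 34 macrophage genes, as a difference in log2(FPKM + 1), under the wildtype label (horizontal) and the AID-null label (vertical), 1 point per gene. The dashed line marks equal change, and thin lines mark differences of 1. The lower left holds 20 genes past -1 on both axes; Laptm5, Cd14, Cd53, Pf4 and Fcgr2b lie to the right of 1.

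At 3 weeks the macrophage genes again stood higher under the AID-null label. Of 30 genes compared, 22 were higher by at least 1 and 1, Cd53, was lower, against 9.76% higher and 11.6% lower over all 15204 genes. The median difference was 2.37, against -0.18 over all genes, with a range of -1.31 to 5.62. It was 4.49 with 0.1 FPKM added in place of 1, and 1.23 with 5 FPKM added. Of the 30 genes, 13 were listed at 0 in one library and 15 passed the filter through 1 library only. The largest differences between libraries with both values above 0 were those of Ctss (4.90), Lyz2 (4.52) and Mpeg1 (4.15). Over all genes the split of 1484 higher and 1757 lower depended on scaling: it became 1865 and 1228 with upper-quartile scaling and 1901 and 1200 with median-of-ratios scaling, which moved the median of all genes from -0.18 to about 0.

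Of the 30 genes compared in both states, 17 were higher by at least 1 under the AID-null label in fibroblasts and at 3 weeks, against 1.28% of the 13368 genes compared in both. Another 7 reached that difference in fibroblasts but not at 3 weeks, among them Spi1, Cd68, Laptm5 and Cd14. Fcgr1, Cx3cr1 and Clec4a3 reached it in fibroblasts and were under 1 FPKM in both 3-week libraries. In 5 genes, Fcgr3, Lyz2, Ctss, Ly86 and Clec4n, it was reached at 3 weeks only. Lyz2 shows this plainly, with 1239.9 and 1466 FPKM in the fibroblast libraries and 38.4 and 903 FPKM at 3 weeks.

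Fibroblast markers moved in the same direction at 3 weeks. Of the 12 markers, 11 were higher by at least 1 under the AID-null label at 3 weeks (median 2.02), 12 fell under the wildtype label (median -3.27) and 8 under the AID-null label (median -1.58). Col1a1, the main collagen of fibroblasts, was at 26383, 30837, 159 and 1143 FPKM. The 12 markers summed to 93952, 102322, 6200 and 24483 FPKM, none of them at 0 in any library, and their part in the 3-week difference of the macrophage genes was not tested. In untreated fibroblasts the markers did not move with the macrophage genes: 1 of 12 was higher by at least 1, with a median of 0.12. Pluripotency genes such as Pou5f1 (2.32, 2.26, 2391 and 1539 FPKM) rose in both series, 10 of 10 in each; for Pou5f1 (Oct4) and Sox2 the introduced copies may be counted as well.

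The share of the fibroblast level left at 3 weeks does not depend on the added 1 FPKM. Over the 26 genes with at least 5 FPKM in both fibroblast libraries, the median share was 3.55% under the wildtype label and 30.6% under the AID-null label. Under the wildtype label 16 of 26 genes were left with less than 10%, and under the AID-null label none, with a lowest share of 12.1%. These values rest on the zeros: 10 of the 26 genes, among them Tyrobp, the C1q chains, Emr1 and Ptprc, were listed at 0 in the wildtype 3-week library. Over the other 16 genes the median shares were 27% and 35.7%, and 6 genes were left with less than 10% under the wildtype label. The share was higher under the AID-null label for 8 of them. Leaving out genes for a 0 in the wildtype 3-week library raises the wildtype median by construction. In the AID-null 3-week library 0 of the 26 were listed at 0. Lyz2 was left at 3.1% and 61.6%, Ctss at 1.67% and 38.7%, and Csf1r at 7.84% and 14.1%. With the zeros included, the share was higher under the AID-null label for 18 of 26 genes, against 40.8% of all 11564 genes. Over all genes the median shares were 96.3% and 86.4%, and over the 12 fibroblast markers 8.23% and 34.6%.

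As a difference between the 2 log2 changes, 13 of 33 macrophage genes had a change at least 1 higher under the AID-null label and 9 one at least 1 lower, against 9.68% and 13.9% of 15624 genes. The median was 0.79, against -0.18 over all genes, and it took the other sign, -0.12, with 5 FPKM added in place of 1. These 2 changes were not tested against each other, and the counts include genes listed at 0.

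Genes of the same pathways differed in how far they went along. Between the untreated fibroblast libraries, ITAM signalling genes were higher by at least 1 under the AID-null label in 10 of 11 compared (median 1.56), and the counts for the other lists below are of the same comparison, in which 4.26% of all genes were higher. They include the phosphatase gene Inpp5d (4.44, 15.0, 82.6 and 90.1 FPKM) and the phospholipase gene Plcg2 (8.11, 17.7, 74.5 and 45.0 FPKM). Both were higher at 3 weeks than in fibroblasts under the wildtype label, as 6 of 12 genes of the list and 27.0% of all genes were, unlike the adaptors Tyrobp and Fcer1g upstream of them. The NADPH oxidase genes were higher in AID-null fibroblasts in 4 of 5, with Ncf1, a cytosolic subunit, at 7.74, 31.9, 0 and 4.06 FPKM. Cyba, the membrane partner of CYBB that many cells express, was the exception at 376, 353, 247 and 325 FPKM.

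Leukocyte integrin and cytoskeleton genes were higher in AID-null fibroblasts in 9 of 12 (median 1.83), with the actin bundler Lcp1 at 36.3, 129, 3.33 and 15.0 FPKM and Itgb2, the partner chain of CD11b, at 18.1, 42.5, 2.08 and 18.7 FPKM. Arhgdib, the most abundant gene of that list, was at 446, 565, 455 and 258 FPKM. At 3 weeks 4 of the 12 were higher and 2 lower (median 0.11), against 9.76% and 11.6% of all genes. Between the untreated fibroblast libraries, chemoattractant receptors were higher in 5 of 5 (median 1.57), 3 of them at 1 FPKM or more in the AID-null library only. They included the complement receptor C3ar1 at 17.3, 53.4, 0 and 5.23 FPKM. MHC class II genes were higher in 3 of 6, of which 2 reached 1 FPKM in the AID-null library only. The third was the invariant chain Cd74 at 8.78, 38.4, 1.77 and 2.12 FPKM. H2-Ab1, the most abundant gene of the list, was at 114, 102, 43.0 and 211 FPKM, a difference of -0.16 in log2(FPKM + 1) between the fibroblast libraries. Lysosomal hydrolases and membrane proteins were higher in 0 of 10 (median -0.23), with Ctsd, cathepsin D, at 6305, 4637, 3614 and 2369 FPKM. Toll-like receptor genes were higher in 3 of 11 (median 0.07, largest difference 2.76), with Tlr4 at 97.7, 88.7, 65.0 and 44.1 FPKM. Myeloid transcription factors were higher in 2 of 12 (median 0.33, largest difference 1.54), with Runx1 at 117, 161, 17.6 and 27.0 FPKM.

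Of the remaining lists, macrophage chemokines were higher in 5 of 10 and lower in 1, Ccl8, at 480.3, 108, 683 and 186 FPKM. Lipid-handling genes were higher in 2 of 10 and lower in 1, Gpnmb, at 704, 337, 495 and 132 FPKM. Markers of tissue residence were higher in 3 of 7, genes of the CSF1 axis in 1 of 5, inflammatory genes in 1 of 4 and alternative activation genes in 0 of 2, with 1 lower.

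**Figure D4:**
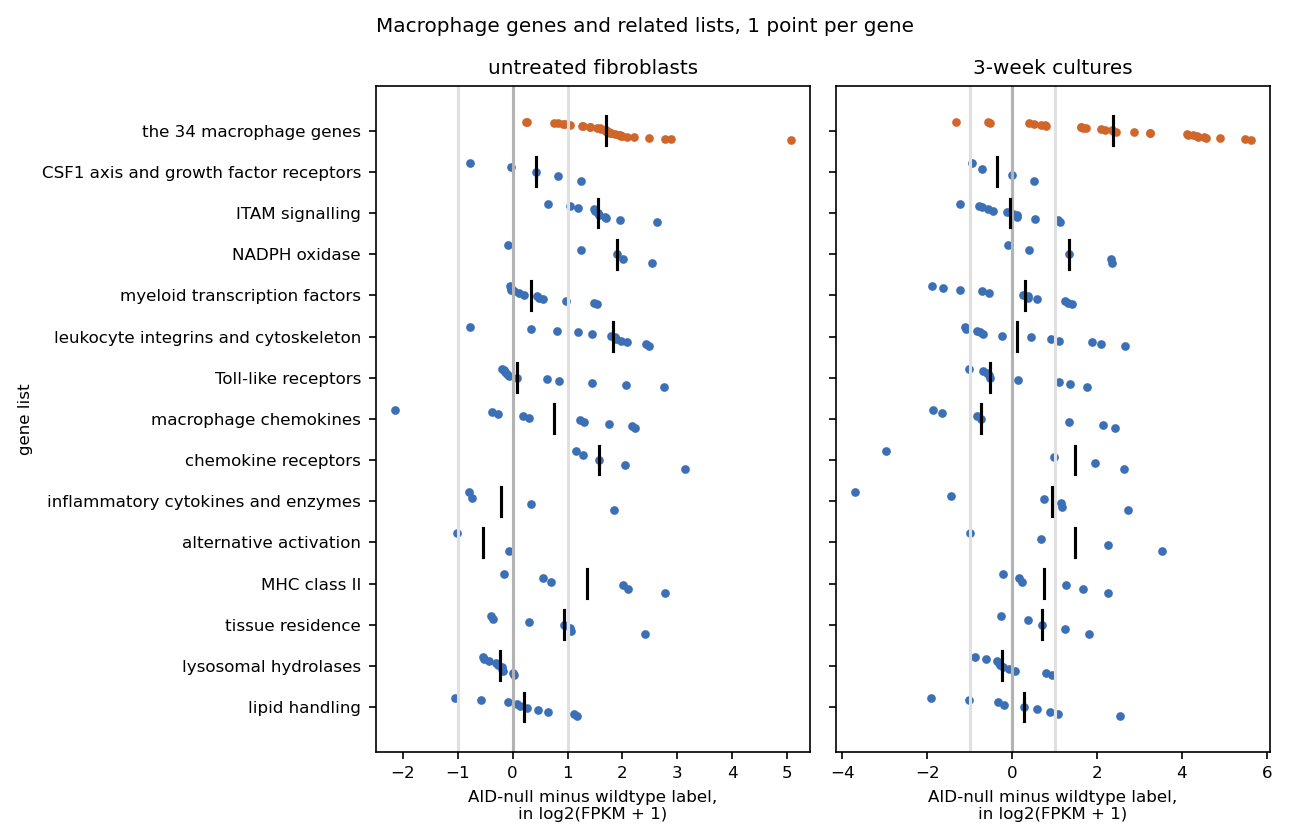
Difference between the labels, AID-null minus wildtype, in log2(FPKM + 1), for each compared gene of the macrophage set (orange) and of 14 related lists (blue), in untreated fibroblasts (left) and at 3 weeks (right). Black bars are list medians and thin lines mark differences of 1. In fibroblasts the macrophage genes lie to the right of 0 with a median of 1.71, while lysosomal hydrolases lie near 0; at 3 weeks the macrophage median is 2.37 and that of ITAM signalling -0.05.

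Markers of lymphocytes, neutrophils and red cells were largely undetected in the fibroblast libraries. The 7 B cell markers, 8 neutrophil markers and 8 red cell markers found were all listed at 0 in both, as were 10 of 11 T and NK cell markers, the exception being Lck at 1.42 and 1.91 FPKM. Of 8 mast cell and basophil markers, 7 were listed at 0 in both, and Gata2 was at 9.25 and 4.87 FPKM. Dendritic and Langerhans cell markers were partly detected: of 8, Zbtb46 was at 5.10 and 6.19 FPKM, Ccr7 at 1.28 and 0.80 FPKM and Cd207 at 0 and 2.88 FPKM, and the other 5 were listed at 0 in both. Osteoclasts share the myeloid lineage. Of 7 of their markers compared, 4 were higher by at least 1 in AID-null fibroblasts, against 4.26% of all genes. Of these, 2 reached 1 FPKM in the AID-null library only. The others include Acp5, a phosphatase also made by macrophages, at 12.4, 89.2, 20.1 and 70.5 FPKM. Ctsk, the most abundant of the 7, went the other way at 2389, 1859, 629 and 238 FPKM. Its AID-null minus wildtype difference in log2(FPKM + 1) was -0.36 in fibroblasts and -1.40 at 3 weeks. At 3 weeks the neutrophil and epithelial gene S100a8 appeared, at 863 FPKM under the wildtype label and 130 FPKM under the AID-null label, with the other 7 neutrophil markers at 3.29 FPKM or less. Lck rose to 16.1 and 9.30 FPKM, and the endothelial and pluripotent cell gene Pecam1 to 67.8 and 91.1 FPKM. The part of these cell types in the values of Laptm5, Cd14 and Cd53 was not tested.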

How the data were processed

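RNA was sequenced as paired-end reads of 75 bases, per the labels' protocols. Per the submitters' processing notes, reads were handled with TopHat and Cufflinks on mm9, a mouse genome build; versions, gene annotation and counting options are not given in the sources used here. FPKM per gene were deposited by the authors for 4 libraries, and these values were used without rescaling. Groups were taken from the sample titles. Differences were taken in log2(FPKM + 1) over genes that reached 1 FPKM in either library, and a difference of at least 1 was counted; the scale understates changes of low genes. FPKM summed to between 1708869 and 2012350 per library, read depth is unknown, and 1 library per group gives no error.

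Members with at least 20 FPKM in any library are given in every library, and up to 4 genes per other list were named, those with the highest maximum FPKM. Of 254 genes in all lists, 253 were found, 4 by an older symbol. The values of some genes are not reported here. Xist and Eif2s3y were named after their values were seen. Members and lists were chosen with earlier results of these data known. Other pseudocounts, filters and scalings were tried. Python 3.11.15, pandas 2.3.3, numpy 2.4.6 and matplotlib 3.10.9 were used.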

Additional observations from a re-analysis of the deposited data

Results flagged for a closer look

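Cd53 went opposite ways under the 2 labels. Its change from fibroblasts to 3 weeks was 2.19 under the wildtype label and -0.72 under the AID-null label in log2(FPKM + 1), and the AID-null minus wildtype difference was 1.60 in fibroblasts and -1.31 at 3 weeks, so the 2 differ by -2.91. Laptm5 changed by 2.27 and -0.12 under the 2 labels, and differed between labels by 1.86 in fibroblasts and -0.53 at 3 weeks, which makes -2.39. Cd14 differed between labels by 1.53 in fibroblasts and by -0.57 at 3 weeks, which makes -2.10. Clec4n changed by -3.21 under the wildtype label, where it was listed at 0 at 3 weeks, and by 0.60 under the AID-null label, which makes 3.81. With 1 library per group these differences were not tested.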

How the results depend on the processing

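No paired analysis was possible because each RNA group has 1 library and no test was made; for the same reason no library could be left out. The settings tried were 0.1 and 5 FPKM added in place of 1, upper-quartile and median-of-ratios scaling, rescaling all libraries to an equal FPKM sum, no filter on low values, and a minimum of 5 FPKM. Of 105 medians and counts over the members under these settings, 102 kept their direction and their side of the limit of 1 (medians) or stayed within 1.5 times the reported count. Medians among them still moved with the FPKM added (0.1 or 5): the 3-week difference of 2.37 became 4.49 or 1.23, and the wildtype change of -2.64 became -4.45 or -1.25. With rescaling to an equal sum, the median of 0.79 below became 0.31. The other 3 concern the difference between the 2 reprogramming changes: its median of 0.79 became 1.60 with 0.1 FPKM added and -0.12 with 5 FPKM added, and its 13 members with a higher change became 6 with 5 FPKM added. With 5 FPKM added the value of C1qb for that difference took the other sign, -0.17 against 1.44. Because 16 members are listed at 0 in the wildtype 3-week library, log2 changes there depend on the pseudocount. Unknown depth limits how low a level can be told from 0.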
